A study of Mus musculus with 2 samples.

Results

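The genes that defend cells against oxidative stress were examined in cultured stromal cells of mouse white and brown fat. The set holds 39 genes in 10 groups by role: the redox sensor, quinone and haem enzymes, glutathione supply, thioredoxin, NADPH supply, glutathione peroxidases, peroxiredoxins, superoxide dismutases with catalase, glutathione transferases, and metal-binding proteins. They were chosen by name and function, and no measured value enters the rule, but earlier results of these data were known when they were chosen. All 39 were listed in both libraries, among 28651 genes in inguinal white adipose tissue (iWAT) and 29958 genes in interscapular brown adipose tissue (iBAT). The Gstp genes, also glutathione transferases, were left out by the rule because their 3′ ends are near-identical.

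Stromal vascular cells came from pooled tissue of wild-type C57BL/6N mice aged 8 to 12 weeks and were grown in high-glucose medium to 80% confluency. For 48 h the cultures of each depot had either no factor or 5.5 nM of a fibroblast growth factor, which was FGF1, FGF2 or FGF8 (the paper's single-cell methods leave FGF8 out), and 10000 cells of each of the 4 treatments were loaded into 1 shared library. No treatment tag per cell was used here, so each depot is 1 sample that pools 4 treatments, treatments were not compared, and depot differences could not be checked against replicates. Levels are unique molecular identifiers (UMIs, each marking 1 captured transcript) summed over a set of cells and scaled to UMIs per 1000000 (UPM). The library primes at the 3′ end of transcripts, so levels were not divided by length. Intervals are at 95%, exact, and cover counting error only. A gene is called higher or lower where its level differed by 1.5-fold or more and reached 10 UPM in at least 1 of the 2 sets compared, and no p-value was computed.

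Cells meet reactive oxygen with several systems that feed each other. Nrf2, the protein of Nfe2l2, is held back by Keap1 until oxidants or electrophiles modify Keap1, and it then binds antioxidant response elements (AREs) near genes for quinone reduction, glutathione synthesis, thioredoxin and NADPH supply. Peroxidases and peroxiredoxins use glutathione or thioredoxin to clear peroxides, ferritins store iron that would otherwise feed radical formation, and metallothioneins, induced through metal response elements (MREs), bind zinc and other metals. In brown fat this chemistry is of interest because the tissue is built for a high rate of respiration.

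Both libraries were deep. The iWAT library had 503611913 UMIs in 29962 barcodes and the iBAT library 815235820 UMIs in 28636 barcodes, and the filter kept 99.3% and 98.5% of them, with a median of 16204 and 27235 UMIs per kept cell. Only 8 barcode labels occurred in both. At least 1 UMI of Pdgfra, a receptor of mesenchymal progenitors, was found in 58.7% of the kept iWAT cells and 91.9% of the kept iBAT cells. These are shares of cells with a UMI at unequal depth, not of a cell type. With each cell thinned to 10000 UMIs they were 11929 of 24156 cells in iWAT, where 5588 shallower cells were left out, and 22357 of 28215 cells in iBAT. Among Ptprc-positive cells, which should lack Pdgfra, 26.2% in iWAT and 52.7% in iBAT had a UMI of it, at a median of 12877 and 24951.5 UMIs per cell. None of the 5 class markers was found in 7384 iWAT and 1588 iBAT cells. Pdgfra-positive cells are called stromal below by this rule alone. Scrublet called 1.89% and 2.82% of kept cells doublets, and they were retained. Among the marker-positive sets used below, the shares were highest in Ptprc-positive iWAT cells (10.2%), Sox10-positive iBAT cells (10.02%), Sox10-positive iWAT cells (5.82%), Ptprc-positive iBAT cells (5.41%) and Epcam-positive iWAT cells (5.37%), against 1.02% and 2.60% of the Pdgfra-only cells they are compared with. Without the called doublets every count of members called below at 1.5-fold in the full marker-positive sets was the same. The libraries also differed in sex-linked transcripts. Xist, the RNA of the inactive X, was at 345 UPM in iWAT and 0.0505 UPM in iBAT, and the Y-linked Ddx3y at 1.2 and 81.9 UPM. Depot therefore cannot be told apart from the sex of the cells or from anything else that differed between these 2 libraries. G6pdx and Prdx4 are X-linked.

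The promoters were searched for AREs and MREs, the elements named above. The rule for members did not use promoter letters, but it took in roles named above as those of genes near AREs. An excess among members is therefore not independent of their choice. The RefSeq promoter table (GRCm38.p6) held 33 of the 39 members. Hmox1, Gclc, Gsr, Prdx6, Sod3 and Gsta4 had no entry. In the 250 bases before the start, on either strand, the letters of the ARE core, TGACNNNGC, occurred in 8 of 33 members (24.2%), against 11.5% of all 27025 genes in the table and 10.2% of promoters. Below are those 8 sites, placed on GRCm39 by exact match, 5′ to 3′ on the strand of the motif. Capitals mark the core, and the letters TGACTCA of an AP-1 site overlap it in Prdx1 and Mt2.
Nfe2l2, chr2:75535229-75535257, minus strand: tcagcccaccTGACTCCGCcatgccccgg
Gclm, chr3:122039062-122039090, minus strand: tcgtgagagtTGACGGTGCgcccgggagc
Prdx1, chr4:116542653-116542681, minus strand: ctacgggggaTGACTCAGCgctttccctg
Mgst1, chr6:138117459-138117487, minus strand: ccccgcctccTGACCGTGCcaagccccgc
Mt2, chr8:94899157-94899185, plus strand: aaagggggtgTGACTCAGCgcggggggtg
Txnrd1, chr10:82694938-82694966, minus strand: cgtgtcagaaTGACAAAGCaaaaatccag
Sod1, chr16:90017584-90017612, minus strand: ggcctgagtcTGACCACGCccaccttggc
G6pdx, chrX:73472525-73472553, plus strand: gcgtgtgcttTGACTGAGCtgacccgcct

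The Gclm site lay 134 bases before the start in the table and that of Mt2 79 bases before it. By the GENCODE M39 annotation the Gclm and Nfe2l2 sites lay outside the gene itself. The Prdx1 and Txnrd1 sites lay within introns of the gene, upstream of a start listed by RefSeq, of which Txnrd1 has several. The sites of Mgst1, Mt2, Sod1 and G6pdx fell in an exon of at least 1 annotated transcript of the gene. Exons of other genes also covered the sites of Nfe2l2 (E030042O20Rik and Gm75256), Prdx1 (AV051173), Txnrd1 (Gm38560) and Mt2 (Gm45774), so the Gclm site alone lay in no annotated exon. In the same stretch before the listed start, MRE letters, TGCGCNC or TGCACNC, occurred in 9 of 33 members (27.3%) against 23.8% of all genes. Among members, Mt2 alone held 3 or more in that stretch, which 1.46% of genes did. Letters outside it were not searched, so these counts are not totals for a gene. Shown here are the 3 MREs found there for Mt2 and the 1 found for Mt1. These genes were chosen because both metallothioneins were among the most abundant and most variable members. By the same annotation the Mt1 site fell in an exon of Mt1. Each Mt2 site fell in an exon of Gm45774 and, but for the one from 94899012, in an exon of Mt2.
Mt2, chr8:94899012-94899040, plus strand: agcatcgcctcTGCACCCggcccctcggg
Mt2, chr8:94899107-94899135, plus strand: cgcagacccttTGCGCTCagctcctttgc
Mt2, chr8:94899185-94899213, minus strand: gggacagagccTGCACACgccctcccccc
Mt1, chr8:94905683-94905711, plus strand: cggtcccgctgTGCACACtggcgctccag
A match describes letters only, and binding was not measured.

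Together the members made up 1.32% of all UMIs of the kept iWAT cells and 1.81% of those of iBAT, and in Pdgfra-positive cells 1.35% and 1.83%. Metal-binding genes were the largest group. In Pdgfra-positive cells they summed to 6112 UPM in iWAT and 8957 UPM in iBAT, followed by the peroxiredoxins with 2193 and 2681 UPM and the thioredoxin group with 1528 and 1767 UPM. The sensor pair was among the smallest groups, at 188 and 208 UPM. At the low end, Slc7a11, the cystine importer, stood at 8.69 UPM in iWAT and 9.24 UPM in iBAT, below the limit for a call.

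The comparison of depots was made in Pdgfra-positive cells, 17460 in iWAT and 25927 in iBAT, so that cell types outside the stroma weighed less. An Epcam UMI was also found in 1810 of these iWAT cells and 101 of these iBAT cells, so the sets still differed in such cells. Of the 38 members that passed the level, 12 were higher in iBAT and 1 was lower, with 25 in between. Over all 8991 genes that passed, 8.75% were higher and 8.55% lower. On the log2 scale of iBAT over iWAT, the members had a median of 0.29 and all genes one of 0.05. At 2-fold, 7 members were higher (3.73% of all genes) and 0 lower (4.42%). Higher members were found in 8 of the 10 groups, all but the sensor and the thioredoxin group. In all kept cells the counts were 14 higher and 2 lower, against 9.47% and 8.91% of 9081 genes, with a median of 0.30 for the members. At 2-fold they were 6 and 0, against 3.96% and 4.98%. Srxn1 and Mt1 entered the higher list there, both at 1.51-fold, and both dropped below 1.5-fold under both other scalings.

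**Figure D1:**
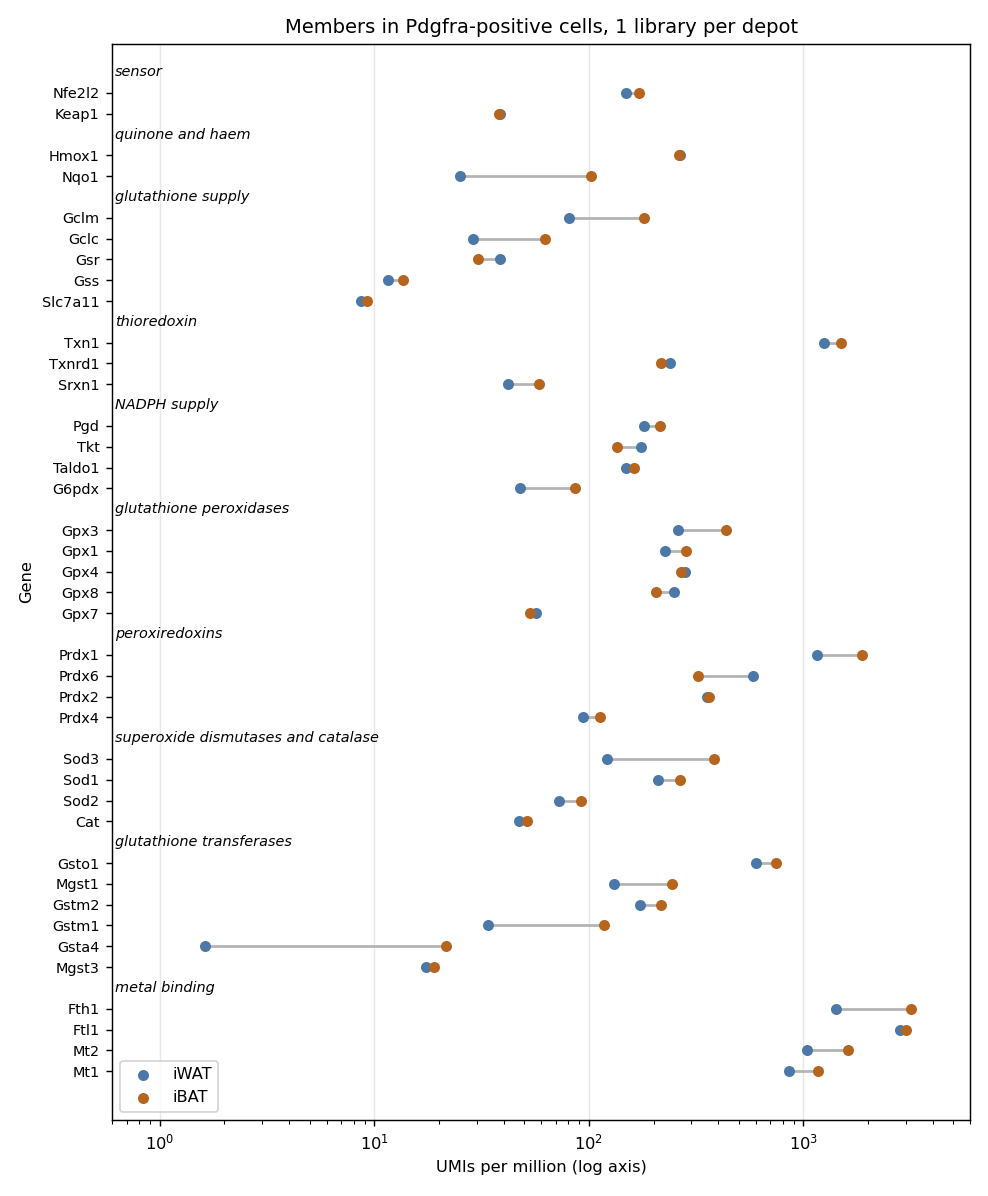
Level of each member in Pdgfra-positive cells of iWAT (blue) and iBAT (brown), in UPM on a log axis, grouped by role; each point is the summed count of 1 library and a line joins the 2 depots. Gsta4, Nqo1, Gstm1 and Sod3 show the longest lines to the right, and Prdx6 the longest to the left.

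The sensor itself differed little. Nfe2l2 was at 149 UPM in iWAT and 170.4 UPM in iBAT (log2 ratio 0.19, interval 0.18 to 0.21), and Keap1 at 38.3 and 38.0 UPM (−0.01, −0.05 to 0.02). Of the quinone and haem enzymes, Nqo1 was called and Hmox1 was not. Nqo1, which reduces quinones by 2 electrons, was 25.0 UPM in iWAT and 102 UPM in iBAT, or 4.09-fold higher (log2 2.03, 2.00 to 2.07). Hmox1, which degrades haem, was at 267 and 262 UPM (−0.02, −0.04 to −0.01). The sign of Keap1 and Hmox1 depended on the cells, since over all kept cells they were at 0.02 and 0.11.

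In glutathione supply both subunits of the enzyme that limits synthesis were called. Gclm, the modifier subunit of glutamate-cysteine ligase, was 81.2 UPM in iWAT and 179.7 UPM in iBAT, 2.21-fold higher (log2 1.15, 1.13 to 1.17). Gclc, its catalytic subunit, was 28.9 and 62.3 UPM, 2.15-fold higher (1.11, 1.07 to 1.14). Gss, the enzyme of the next step, stayed close, at 11.6 and 13.6 UPM (0.23). Gsr, which returns oxidised glutathione to its reduced form, leaned the other way with 38.4 and 30.4 UPM (−0.34), and over all kept cells, where 21.3% of the iWAT cells were Epcam-positive, it was called lower at 1.55-fold. The part of those cells in that ratio was not tested.

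Of the thioredoxin group, Txn1 was the highest gene, at 1247 UPM in iWAT and 1492 UPM in iBAT (0.26). Its reductase Txnrd1 was at 240 and 216 UPM (−0.15) and the sulfiredoxin Srxn1 at 41.8 and 58.5 UPM (0.49), so none was called. Among genes of NADPH supply, G6pdx, the entry enzyme of the pentose phosphate pathway, was 47.5 UPM in iWAT and 86.3 UPM in iBAT, 1.82-fold higher (0.86, 0.84 to 0.89). Being X-linked, it is exposed to the difference in sex-linked transcripts, and the part of that difference in its ratio was not tested. Pgd, Taldo1 and Tkt, later steps of the same pathway, lay between −0.37 for Tkt and 0.25 for Pgd, whose 3′ end has 4 partial copies elsewhere that make its count uncertain.

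Among superoxide dismutases and glutathione peroxidases, 1 member each was called. Sod3, the extracellular superoxide dismutase, was 122 UPM in iWAT and 385 UPM in iBAT, 3.16-fold higher (log2 1.66, 1.65 to 1.68), while cytosolic Sod1 and mitochondrial Sod2 were at 0.34 and 0.33 and catalase (Cat) at 0.13. Gpx3, the secreted glutathione peroxidase, was 261 and 437 UPM, 1.67-fold higher (0.74, 0.73 to 0.75). A minority of iBAT cells held much of the Gpx3 count, as given with the spread below. The cellular Gpx1 was at 0.32, and Gpx4, which protects membrane lipids, at −0.07. Gpx4 has a copy of its last 300 bases elsewhere in the genome, so its count is uncertain. The remaining peroxidases of the endoplasmic reticulum, Gpx7 and Gpx8, were at −0.10 and −0.27, and over all kept cells Gpx7 had the opposite sign (0.04).

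The peroxiredoxins went in both directions. Prdx1, the most abundant of them, was 1162 UPM in iWAT and 1883 UPM in iBAT, 1.62-fold higher (0.70, 0.69 to 0.70). Its median per Pdgfra-only cell was closer between the depots than this sum, as given with the spread below. Prdx6, which uses glutathione rather than thioredoxin, was 581 and 322 UPM and was thus the only member called lower in iBAT stromal cells, by 1.81-fold (−0.85, −0.86 to −0.85). Prdx2 was at 356 and 364 UPM (0.03), with the opposite sign over all kept cells (−0.08). X-linked Prdx4, with 1 partial copy of its 3′ end elsewhere, was at 0.26.

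Glutathione transferases held the largest ratio of all. Gsta4, which conjugates the lipid peroxidation product 4-hydroxynonenal, was at 1.62 UPM in iWAT (528 UMIs) and 21.5 UPM in iBAT, 13.3-fold higher (log2 3.73, 3.61 to 3.86). Gstm1 was 34.0 and 117 UPM, 3.46-fold higher (1.79, 1.76 to 1.82). Its neighbour on chromosome 3, Gstm2, differed little, at 174 and 217 UPM (0.32). Gstm2 has a close copy of its 3′ end elsewhere in the genome, so its count is uncertain. Mgst1, a membrane-bound transferase, was 131 and 243 UPM, 1.85-fold higher (0.89, 0.87 to 0.90). Gsto1 was the highest of the group in both depots, at 599 and 742 UPM (0.31), and Mgst3 the member whose sign moved most with the cells, from 0.12 here to −0.31 over all kept cells.

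Of the 2 ferritin chains only the heavy chain was called. Fth1, the ferroxidase chain, was 1414 UPM in iWAT and 3170.0 UPM in iBAT, 2.24-fold higher (log2 1.16, 1.16 to 1.17). Ftl1, the light chain, was 2809 and 3004 UPM (0.10, 0.09 to 0.10). In iWAT the light chain thus had the higher count of the 2 and in iBAT the heavy chain. Ftl1 has 7 close copies of its 3′ end elsewhere in the genome, and how the authors' pipeline assigned reads that match several places is not given in the sources used here. Mt2 was 1036 and 1609 UPM, 1.55-fold higher (0.64), and Mt1 854 and 1174 UPM (0.46). With at least 2 Pdgfra UMIs per cell Mt2 was at 0.53, below the threshold.

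Other genes of these pathways, 75 outside the members, were read as a second list. Of the 52 that passed in Pdgfra-positive cells, 8 were higher and 3 lower in iBAT, beside 8.75% and 8.55% of all genes, with a median log2 ratio of 0.08. The difference between this list and the members was not tested. The largest ratios were those of the transferase Gstt1 (3.28 UPM in iWAT and 13.8 UPM in iBAT, log2 2.07), the selenium carrier Selenop (47.6 and 196 UPM, 2.04), the glutathione-degrading Chac1 (20.0 and 6.77 UPM, −1.57), the epoxide hydrolase Ephx1 (49.0 and 117 UPM, 1.26) and glutaredoxin Glrx (29.2 and 63.1 UPM, 1.11). Over all kept cells the counts were again 8 and 3, beside 9.47% and 8.91% of all genes, and Gstt2 joined the largest, at 17.5 UPM in iWAT and 8.33 UPM in iBAT.

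Cells with a UMI of Adipoq, Epcam, Sox10 or Ptprc were compared with Pdgfra-only cells of the same library, which have Pdgfra and none of the other markers (15361 cells in iWAT and 24779 in iBAT). Their median depths ran from 12238 to 19966 UMIs in iWAT and from 19338 to 30888 UMIs in iBAT. The names of these classes were first set against 10 markers each, with 3-fold as the limit for raised. Each list of 10 holds the marker that chose the cells. Pdgfra-only cells lack that marker by rule, so 1 in each count of a class's own markers was fixed in advance. Ptprc-positive cells had all 10 immune markers raised in both libraries (187 cells in iWAT, 296 in iBAT). Epcam-positive iWAT cells (6333, or 21.3% of kept cells) had all 10 epithelial markers raised, whereas the 111 Epcam-positive iBAT cells (0.393%) had only Epcam itself, and 91.0% of them also had Pdgfra. Sox10-positive iBAT cells (1138) had 9 of 10 Schwann markers raised, but the 2887 Sox10-positive iWAT cells had 9 of 10 epithelial markers and only 3 of 10 Schwann markers. Adipoq-positive iBAT cells (324) had 9 of 10 adipocyte markers. The 34 Adipoq-positive iWAT cells were too few to be called. Where a label went against its markers, the cells are named by the rule alone. A cell with 1 UMI of a marker may hold free RNA or be a doublet, so purer sets, with at least 2 marker UMIs and no Pdgfra UMI, are given where they held 50 cells or more.

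**Figure D2:**
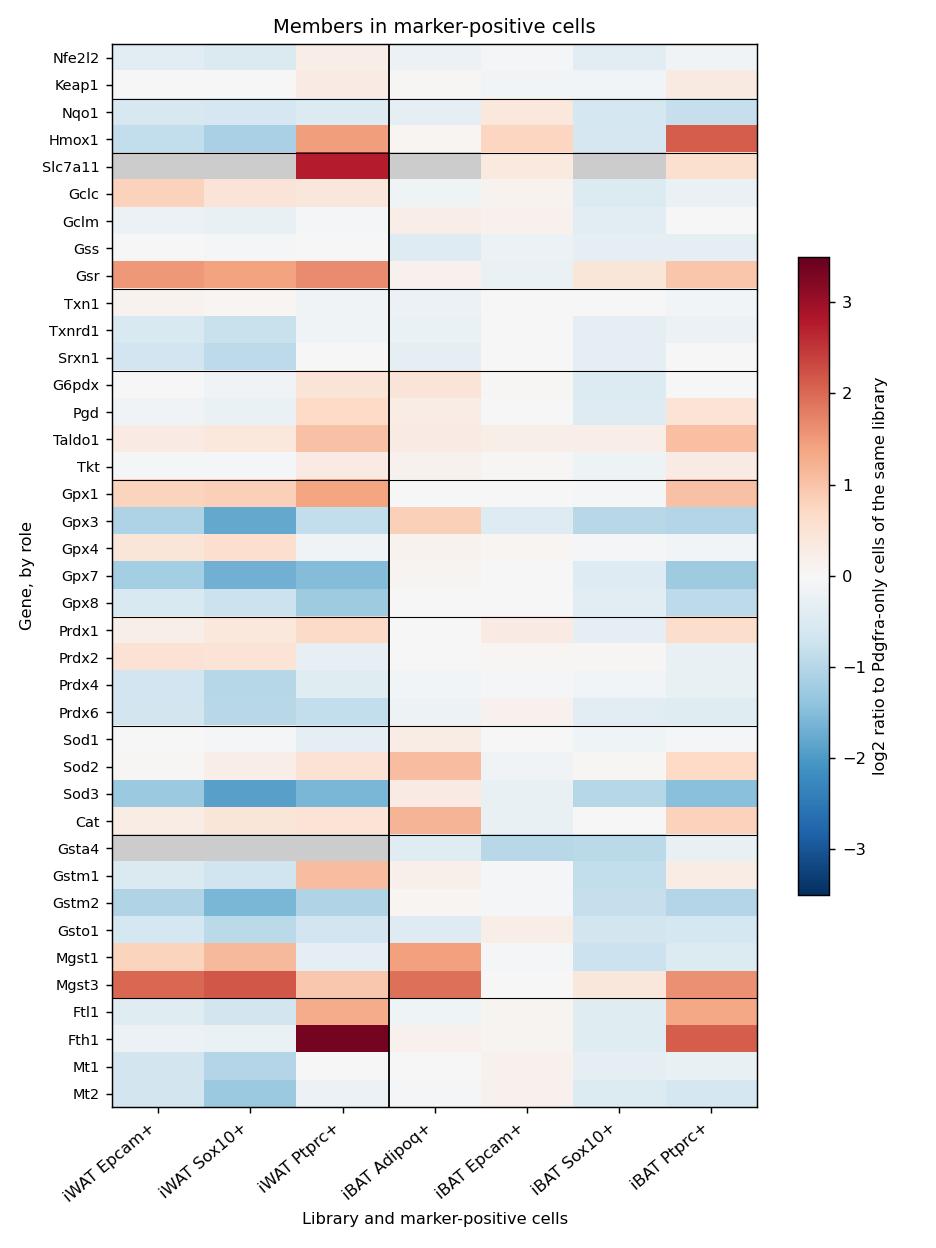
Log2 ratio of each member (rows, grouped by role) in marker-positive cells over Pdgfra-only cells of the same library (columns, 3 sets in iWAT and 4 in iBAT); red is higher, blue lower, and grey marks members below 10 UPM in both sets. Ptprc-positive cells of both libraries are red at Fth1, Ftl1 and Hmox1, and Sod3 is blue in every set but the Adipoq-positive one of iBAT, where it was at 475 against 388 UPM (log2 ratio 0.29).

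In cells with immune markers both ferritin chains and Hmox1 were called higher in both libraries. In Ptprc-positive iWAT cells 11 members were higher and 7 lower than in Pdgfra-only cells, against 17.8% and 19.2% of 9442 genes. In iBAT 10 were higher and 8 lower, against 13.5% and 17.9% of 9288 genes. At 2-fold the counts were 8 and 4 in iWAT (11.5% and 9.45%) and 6 and 4 in iBAT (8.74% and 8.19%). Fth1 reached 14457 UPM in iWAT, 10.3-fold over the 1405 UPM of stromal cells (log2 3.36, 3.35 to 3.38), and 13505 UPM in iBAT, 4.31-fold over 3132 UPM (2.11, 2.10 to 2.12). In these full sets the immune level of Fth1 was thus closer between the 2 libraries than its stromal level. With at least 2 Ptprc UMIs it was 17454 UPM in iWAT and 18429 UPM in iBAT. The difference between libraries was not tested. Ftl1 was 6915 UPM in iWAT and 7720 UPM in iBAT, 2.44-fold and 2.58-fold over stromal cells. Hmox1 was 750.0 UPM in iWAT, 2.77-fold higher (1.47), and 1114 UPM in iBAT, 4.31-fold higher (2.11). Together the members made up 3.14% of the UMIs of Ptprc-positive cells in iWAT and 3.38% in iBAT.

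Other members followed in immune cells of both libraries. Gsr was 115 UPM against 36.1 UPM in iWAT, 3.17-fold higher (1.67, 1.49 to 1.83), and 59.4 against 30.2 UPM in iBAT, 1.97-fold higher (0.98). Gpx1, Taldo1, Mgst3 and Prdx1 were also called higher in both. Slc7a11 was 58.8 against 8.69 UPM in iWAT (2.76, 2.51 to 2.99). In iBAT it was 13.7 against 9.32 UPM (0.55, 0.27 to 0.83), just under the threshold, and with at least 2 Ptprc UMIs it was called higher there too, at 17.7 UPM (0.93). The difference between the libraries was not tested. Lower in both were the secreted Sod3 and Gpx3, the endoplasmic Gpx7 and Gpx8, Gstm2 and Gsto1, which stromal cells hold at higher levels. Sod3, for example, was 41.5 against 125 UPM in iWAT (−1.59) and 140.4 against 388 UPM in iBAT (−1.46). Purer sets of 101 and 114 cells raised the counts to 14 higher and 12 lower in iWAT (25.8% and 28.6% of all genes) and to 12 and 14 in iBAT (20.6% and 30.1%). In the purer iBAT set Hmox1 was at 1754 UPM (2.76, 2.72 to 2.80) and Fth1 at 20867 UPM (2.74, 2.72 to 2.75). With at least 2 Ptprc UMIs and cells with Pdgfra kept, Hmox1 was at 1513 UPM (2.55) in iBAT, above its full set. In iWAT that cutoff went the other way, with Hmox1 at 592 UPM (1.13) against 750 UPM in the full set. Of the Ptprc-positive cells, 26.2% in iWAT and 52.7% in iBAT also had Pdgfra.

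**Figure D3:**
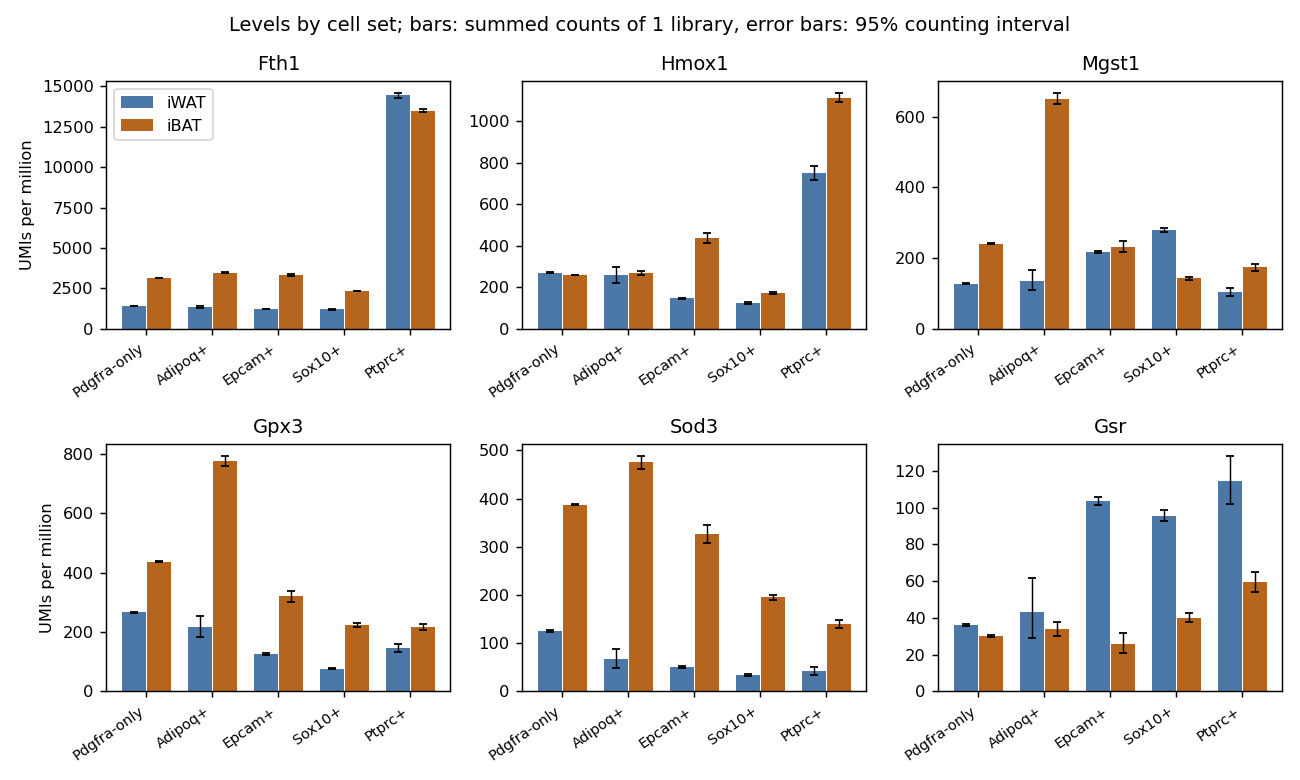
Levels of 6 members by cell set in iWAT (blue) and iBAT (brown), in UPM on linear axes from 0; bars are summed counts of 1 library and error bars the 95% counting interval. Fth1 and Hmox1 stand highest in Ptprc-positive cells, Mgst1 and Gpx3 in Adipoq-positive iBAT cells, and Gsr in the epithelial and immune sets of iWAT.

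In Epcam-positive cells of iWAT, with epithelial markers, 5 members were higher and 11 lower than in Pdgfra-only cells, against 11.1% and 11.0% of 9176 genes, and at 2-fold 2 and 4, against 6.43% and 3.73%. Mgst3 was 62.6 against 15.6 UPM, 4.01-fold higher (log2 2.00, 1.95 to 2.06). Gsr was 104 against 36.1 UPM, 2.87-fold higher (1.52, 1.48 to 1.56), and Gclc, Gpx1 and Mgst1 were higher by 1.76-fold, 1.72-fold and 1.71-fold. Gclm, the partner of Gclc, was 70.1 against 81.3 UPM (−0.21) and was not called. Sod3 was 51.0 against 125 UPM, 2.45-fold lower (−1.29, −1.34 to −1.25), Gpx7 was 2.26-fold lower, Gpx3 2.11-fold, Gstm2 2.06-fold and Hmox1 1.83-fold. Srxn1, Prdx4, Prdx6, Mt2, Mt1 and Gsto1 were lower by 1.54-fold to 1.60-fold.

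Of the Epcam-positive cells 28.6% also had Pdgfra. In the purer set of 3767 cells 7 members were higher and 17 lower, against 19.1% and 18.3% of 9453 genes. Mgst3 reached 91.0 UPM (2.54), Gsr 149 UPM (2.04) and Gclc 64.0 UPM (1.19), and Prdx2 and Gpx4 entered the higher list. Sod3 was at 17.2 UPM (−2.86), Gpx7 at 9.62 UPM (−2.60) and Gpx3 at 45.6 UPM (−2.55). With at least 2 Epcam UMIs and cells with Pdgfra kept, 6 were higher and 17 lower, against 17.1% and 16.8%. In the purer set of 3767 cells the median log2 ratio was −0.36 over the members and 0.05 over all genes.

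In Sox10-positive cells of iBAT, with Schwann markers, no member was called higher and 9 were called lower, against 8.08% and 7.42% of 9074 genes (at 2-fold 0 and 0, against 4.66% and 0.452%), with a median of −0.36 for the members and −0.01 for all genes. Sod3 was 195 against 388 UPM (−0.99, −1.03 to −0.95), Gpx3 224 against 437 UPM (−0.97), Gsta4 11.4 against 21.8 UPM (−0.93) and Gstm1 64.9 against 118 UPM (−0.86), and Gstm2, Mgst1, Gsto1, Nqo1 and Hmox1 followed. Of these cells 53.9% also had Pdgfra. In the purer 490 cells, 24 members were lower and Gsr alone higher, against 17.6% and 17.0% of 9303 genes, and the median reached −1.04. Sod3 there was 22.3 UPM, 17.4-fold lower (−4.12, −4.34 to −3.91), Gpx3 37.2 UPM, 11.8-fold lower, and Mgst1 22.7 UPM, 10.6-fold lower. Gsr was 50.8 against 30.2 UPM (0.75).

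Sox10-positive cells of iWAT gave 5 higher and 16 lower, against 15.4% and 15.8% of 9314 genes, and at 2-fold 3 and 8, against 8.55% and 8.31%. Of these cells, 2419 of 2887 also had Epcam and so belong to the Epcam-positive set too. Mgst3 (2.18), Gsr (1.40) and Mgst1 (1.13) led the higher members, and Sod3 (−1.90), Gpx3 (−1.80), Gpx7 (−1.67) and Gstm2 (−1.61) the lower ones. In the purer 1480 cells 5 were higher and 17 lower, against 20.6% and 19.2% of 9493 genes, with Mgst3 at 2.40 and Sod3 at −3.47. In the 468 cells without an Epcam UMI, 1 member was higher, Mgst3 at 0.75, and 0 were lower, against 4.16% and 0.855% of 8887 genes.

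Adipoq-positive cells of iBAT, of which 89.8% also had Pdgfra, had 5 members higher and 0 lower than Pdgfra-only cells, against 5.1% and 1.14% of 8947 genes. At 2-fold 4 and 0 were called, against 2.84% and 0.112%. Mgst3 was 70.0 against 18.4 UPM, 3.81-fold higher (log2 1.93, 1.82 to 2.04), and Mgst1 651 against 240 UPM, 2.71-fold higher (1.44, 1.40 to 1.47). Catalase was 115 against 50.9 UPM, 2.26-fold higher (1.18), mitochondrial Sod2 193 against 90.6 UPM, 2.13-fold higher (1.09), and Gpx3 778 against 437 UPM, 1.78-fold higher (0.83). These are enzymes of membranes, peroxisomes, mitochondria and the secreted compartment. Other enzymes of such compartments were not called in these cells, among them secreted Sod3 and mitochondrial Prdx3 (106 against 90.4 UPM).

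With at least 2 Adipoq UMIs (110 cells) the same 5 genes were the 5 highest of 10 higher members, and 7 were lower, against 13.0% and 14.5% of 9162 genes. Mgst3 reached 159 UPM (3.12), Mgst1 1260.1 UPM (2.39), Cat 215 UPM (2.08), Sod2 355 UPM (1.97) and Gpx3 985 UPM (1.17). G6pdx was 171 against 86.2 UPM (0.99), and Taldo1, Gsr, Sod3 and Sod1 were the remaining higher members. Now lower were Gsta4 (−1.11), Gsto1 (−0.92), Nqo1 (−0.92), Gss, Srxn1, Txnrd1 and Gclc (−0.66). In the 34 Adipoq-positive iWAT cells, Mgst1 was at 135 UPM (94 UMIs) against 128 UPM, and Mgst3 at 14.4 UPM (10 UMIs) against 15.6 UPM, with 1 of 10 adipocyte markers raised, Adipoq itself. Sod2 has 21 close copies of part of its 3′ end elsewhere in the genome, so its counts are uncertain.

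Epcam-positive iBAT cells, which lacked epithelial markers, had 1 member higher and 1 lower, against 1.36% and 0.85% of 8828 genes, and 0 and 0 at 2-fold, against 0.555% and 0.147%. Hmox1 was 437 against 259 UPM (0.76, 0.68 to 0.83) and Gsta4 11.2 against 21.8 UPM (−0.96, −1.45 to −0.51). Of these 111 cells only 3 had at least 2 Epcam UMIs. The intervals leave out spread between cells, which was wide for Hmox1 in stromal cells, as given below.

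Dividing and resting stromal cells differed in few members. Pdgfra-only cells were thinned to 10000 UMIs each and split by a UMI of Mki67 or Top2a, genes of dividing cells (8076 with and 5730 without in iWAT, 15135 and 9644 in iBAT). In iWAT 0 members were higher and 1 lower in the cycling cells, against 6.01% and 0.563% of 8697 genes. In iBAT 0 were higher and 3 lower, against 6.21% and 1.3% of 8858 genes. No member reached 2-fold, where the shares of all genes were 3.36% higher and 0.0575% lower in iWAT and 3.76% and 0.226% in iBAT. Hmox1 was lower in both, at 217 against 338 UPM in iWAT (log2 −0.64, −0.67 to −0.61) and 198 against 331 UPM in iBAT (−0.74, −0.77 to −0.72). In iBAT the secreted enzymes joined it, Gpx3 with 360 against 586 UPM (−0.70) and Sod3 with 342 against 526 UPM (−0.62). The cycling set was chosen by 1 UMI, so the other set may hold dividing cells whose UMI was missed.

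The members differed widely in how evenly stromal cells held them. The spread of each was taken as the coefficient of variation (CV) beyond Poisson sampling over Pdgfra-only cells at 10000 UMIs, 13806 in iWAT and 24779 in iBAT. It was computed for members with at least 100 UPM. The median gene had a CV of 0.352 in iWAT and 0.347 in iBAT, and 17 of 23 members in iWAT and 19 of 26 in iBAT lay above it. Hmox1 was among the most uneven genes measured, with a CV of 1.55 in iWAT (rank 18 of 1762 genes) and 1.63 in iBAT (rank 25 of 1814). Its median cell had 2 UMIs in iWAT and 1 in iBAT, its 99th percentile 20 and 19 UMIs, and the 10% of cells with most of its UMIs held 44.0% and 45.3% of them.

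The secreted enzymes also lay above the median gene. Sod3 had a CV of 1.60 in iWAT and 1.33 in iBAT, and 53.3% and 31.0% of cells had none of its UMIs. Gpx3 was more uneven in iBAT, at 1.68 against 1.06, with 52.3% of its UMIs in the highest 10% of iBAT cells. The metallothioneins were uneven too, Mt2 at 1.39 and 1.07 and Mt1 at 1.04 and 0.780. Prdx1 showed a tail in iBAT, where its CV was 1.07 against 0.646 in iWAT. Its median was 13 UMIs per cell in iBAT and 10 in iWAT, close to each other, but its 99th percentile was 109 against 40. At the even end stood Tkt (0.217 in iWAT and 0.244 in iBAT), Sod1 (0.236 and 0.252) and Prdx2 (0.263 and 0.254). Spread between the 4 pooled treatments cannot be told apart from spread within a treatment. Pdgfra-only cells may include immune or other cells whose own marker UMI was missed. Their part in these spreads and in the pairs below was not tested.

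**Figure D4:**
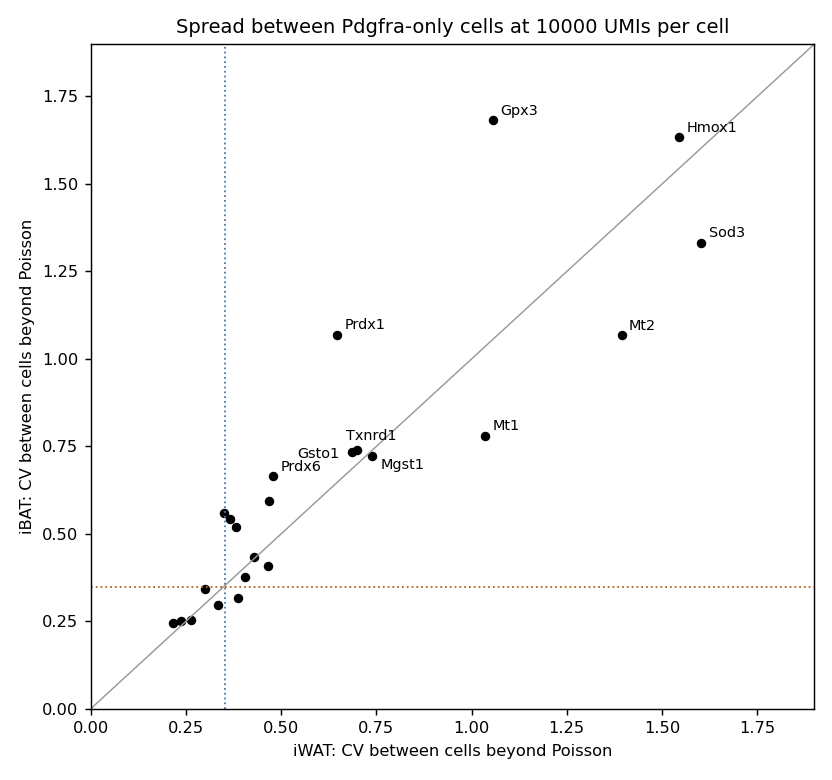
CV between Pdgfra-only cells beyond Poisson sampling for 23 members, iWAT on the x axis and iBAT on the y axis, each cell thinned to 10000 UMIs; the grey line is equality and dotted lines mark the median gene of each library (0.352 and 0.347). Hmox1, Sod3, Mt2 and Gpx3 lie far above both medians, and Prdx1 and Gpx3 lie above the line of equality.

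Members were also compared with each other from cell to cell. Over the same thinned cells, the median Pearson r of the 253 pairs among 23 members was 0.052 in iWAT and 0.046 in iBAT, and 6 pairs exceeded 0.3 in both. These r values describe cells of 1 library that share depth and pooled treatments, and carry no p. Mt1 and Mt2, neighbours on chromosome 8 of GRCm39 (94905710 to 94906955 and 94898819 to 94900207), stood apart with r of 0.75 in iWAT and 0.78 in iBAT. The ferritin chains Ftl1 and Fth1 came next with 0.41 and 0.44. Prdx1 went with both of them, at 0.36 and 0.41 for Ftl1 and 0.36 and 0.37 for Fth1, and Hmox1 with Ftl1 at 0.33 in both. The last pair over 0.3 was Txn1 and Prdx1, electron donor and acceptor, at 0.31 and 0.35. The lowest r in iBAT was that of Txn1 and Sod3, named after its value was seen, at −0.16 in iWAT and −0.36 in iBAT. Pairs of genes outside the members were not computed. Close copies of the 3′ end of Ftl1 bear on 3 of these pairs.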

How the data were processed

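Per the labels, libraries were made on the BD Rhapsody whole-transcriptome platform, and the authors deposited 1 table of counts per depot (UMIs per gene and barcode, not normalized), made with a commercial pipeline. The submitters' processing notes name mm39 and Seurat 5.0.0, and the annotation and the handling of reads with several matches are not given in the sources used here. Cells with more than 200 and fewer than 7500 genes and under 30% mitochondrial UMIs were kept (Python 3.11.15, numpy 2.4.6, scipy 1.17.1). Doublets were called with Scrublet in scanpy 1.11.5 (expected rate 0.08) and kept. Counts were summed per library and cell set and scaled to 1000000. Ratios carry exact conditional binomial intervals, and levels exact Poisson intervals. Marker-positive means at least 1 UMI. Alternatives covered cell filters, marker cutoffs, thinning, level and fold thresholds and scaling. edgeR 4.0.16 (R 4.3.3) gave TMM factors only. Copies of the last 300 bases of each gene were searched with BLAST+ 2.17.0 (at least 100 bases at 97% identity). The ratio script was tested on simulated data. Values were chosen from the members past 1.5-fold in each comparison (at most the 12 largest). Some of these are named without a value or not named. Also chosen were the highest of each group, members that change direction with the cells, the 5 largest other pathway genes and the 5 highest pairs. Further members are given to account for the whole set, and the sixth pair was named after its value was seen. The members and lists were chosen with earlier results of these data known.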

Additional observations from a re-analysis of the deposited data

Results flagged for a closer look

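For 2 members the ratio to Pdgfra-only cells had opposite signs in the 2 libraries, each past 1.5-fold. The difference between libraries was not tested, since each is 1 sample. Hmox1 in Epcam-positive cells was at a log2 ratio of −0.87 in iWAT and 0.76 in iBAT. Counting Epcam itself, the iWAT cells had all 10 epithelial markers raised and the 111 iBAT cells had Epcam alone. Only 3 of those iBAT cells had at least 2 Epcam UMIs. Mgst1 in Sox10-positive cells was at 1.13 in iWAT and −0.75 in iBAT. There the iWAT cells had 9 of 10 epithelial markers raised and the iBAT cells 9 of 10 Schwann markers, Sox10 itself among them.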

How the results depend on the processing

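No paired analysis was possible because each depot is 1 library, and for the same reason no replicate could be left out. Depth per library did not limit members above 10 UPM, but the smallest sets did: in 111 Epcam-positive iBAT cells the log2 interval of Gsta4 ran from −1.45 to −0.51. Of the recomputed counts of members called, 143 stayed within 1.5 times the reported count and 35 did not. These follow (the cycling comparisons are not among them at 2-fold, where their counts were 0 and 0 against 0 and 1 in iWAT and 0 and 3 in iBAT at 1.5-fold), and where the alternative itself does not show it, the cause was not tested. With a call at 2-fold in place of 1.5-fold, the depot comparison had 6 members higher and 0 lower in all kept cells and 7 and 0 in Pdgfra-positive cells. At 2-fold the iWAT counts were 2 and 4 for Epcam-positive and 3 and 8 for Sox10-positive cells, with 4 lower for Ptprc-positive cells. At 2-fold the iBAT counts were 0 and 0 for Epcam-positive and 6 and 4 for Ptprc-positive cells, with 0 lower for Sox10-positive cells. With a level of 50 UPM, 1 member was lower between depots in all kept cells and 0 in Epcam-positive iBAT cells. The shares over all genes at that level are not given here, so these counts cannot be set against them. In purer sets the shares over all genes, given in parentheses, rose too. Epcam-positive iWAT cells had 17 lower with at least 2 marker UMIs (16.8%), with 0 Pdgfra UMIs (16.5%) and with both (18.3%). Ptprc-positive cells with both had 12 lower in iWAT (28.6%) and 14 in iBAT (30.1%), where 0 Pdgfra UMIs alone also gave 14 (28.2%). Sox10-positive iBAT cells had 1 higher and 22 lower with at least 2 marker UMIs (12.8% and 13.7%), 1 and 24 with 0 Pdgfra UMIs (16.2% and 16.6%), 1 and 24 with both (17.0% and 17.6%), and 1 and 17 with markers read after thinning (11.5% and 11.8%). Adipoq-positive iBAT cells had 10 higher and 7 lower with at least 2 marker UMIs (13.0% and 14.5%), and 5 lower with markers read after thinning (5.25%). Sox10-positive iWAT cells with 0 Epcam UMIs, an alternative chosen after seeing the data, had 1 higher and 0 lower (4.16% and 0.855%), and Nqo1 turned from −0.59 to 0.076. No other named member whose ratio was called changed direction in a setting run. Of their values 1042 stayed past the fold threshold and 98 fell below it, 62 of these at 2-fold. Alternatives that left under 50 cells were not run, which were Epcam-positive iBAT cells with at least 2 UMIs, with 0 Pdgfra UMIs or after thinning, Adipoq-positive iBAT cells with 0 Pdgfra UMIs, and Adipoq-positive iWAT cells.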
